A study of Mus musculus with 15 samples.

Results

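The 8 genes described here are Pi16, Clec3b, Gpx3, Cpxm1, Dpt, Dpp4, Cd34 and Pdgfra, which single-cell work in mice ties to fibroblasts of the vessel adventitia and of loose connective tissue. They were taken by symbol from the expression table, where all 8 of 8 were found among 21851 genes. Where the reason is recorded, members were chosen by their measured changes in these data: Pi16, Clec3b and Gpx3 had been among the largest rises with anti-PD-1 against vehicle, and Cpxm1 among the largest with BG136 plus anti-PD-1 against vehicle. How Dpt, Dpp4, Cd34 and Pdgfra were chosen is not recorded, so all 8 genes are described with log2 changes and standard errors and no p-value is printed for a treatment difference of any of them. Counts of members past the threshold are given once, as a description.

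The samples were tumour blocks from wild-type mice bearing MC38, a mouse colon adenocarcinoma line grown as a syngeneic tumour. The 3 groups of 5 tumours had received BG136 and anti-PD-1 antibodies, anti-PD-1 antibodies alone, or vehicle, all given intravenously. Library names within the BG136 plus anti-PD-1 group and within the vehicle group differ in a prefix or suffix whose meaning is not given, and groups were used as labelled. The labels do not say that tumours came from separate mice, so p-values measure the spread between these samples. BG136 is a soluble beta-glucan polysaccharide, and PD-1 is an inhibitory receptor of T cells. The values are taken to be FPKM, that is, fragments divided by transcript length and by the fragments mapped in a library, so levels of different genes can be compared per length. The sums per library lay between 377509 and 424899 FPKM. Read totals are not given, and depth as a multiple of that of vehicle replicate 1, estimated from steps between low values, lay between 0.835 and 1.07 in the 13 libraries where 40.6% or more of the low genes shared 1 step. In BG136 plus anti-PD-1 replicate 4 only 19.7% did. Epithelial genes were low by median for a tumour labelled colon adenocarcinoma. Medians over the 15 libraries were 1.48 FPKM for Cdh1, 0.758 for Krt18, 0.606 for Krt8 and 0.589 for Epcam. Those of Krt20 and Vil1 were 0.0197 and 0.0145 FPKM. Single libraries reached 7.29 FPKM for Krt18, 6.355 for Krt8, 3.82 for Epcam and 2.36 for Cdh1.

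Pi16-positive fibroblasts line the outer coat of blood vessels and the interstitium between fat lobules, and in mice they are regarded as a reservoir from which other fibroblast states arise. In mouse subcutaneous fat, cells with Dpp4, Pi16 and Cd34 are early progenitors of adipocytes. Pdgfra and Dpt are shared by most resting fibroblasts, while Cd34 is also a surface protein of endothelium and blood progenitors and Dpp4 is also carried by T cells. The tumour cells themselves are a further possible source. Which cells held the RNA of these genes was not tested, so none of them is a measure of fibroblasts alone. The blocks are bulk tissue, so more cells of a type and more RNA per cell cannot be told apart in any result given here.

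The 8 genes did not move as one. Pi16, Clec3b, Gpx3 and Cpxm1 were higher in both treated groups than with vehicle, by 2.98 to 5.70 times as ratios of group means. Dpt and Pdgfra were lower, at 0.412 to 0.550 of the vehicle mean. Cd34 lay at 0.826 and 0.976 of it. Dpp4 was low, reaching 1 FPKM in 2 of 15 libraries, though it was listed at 0 in none. Genes under the name of adventitial fibroblasts thus went in opposite directions in these tumours, and they are called the Pi16 group below.

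The promoters are shown because 2 of the genes that were higher with treatment and 1 that was lower can be compared directly. Each run is the 250 bases before the annotated start, 5′ to 3′ on the gene's strand, from RefSeq on build GRCm38.p6. The build is earlier than the one named for the authors' alignment. Capitals mark a CCAAT box, the letters CCAAT on either strand. Pi16 lies at chr17:29318632-29318881 on the + strand, Gpx3 at chr11:54902604-54902853 on the + strand and Dpt at chr1:164796413-164796662 on the + strand.
Pi16: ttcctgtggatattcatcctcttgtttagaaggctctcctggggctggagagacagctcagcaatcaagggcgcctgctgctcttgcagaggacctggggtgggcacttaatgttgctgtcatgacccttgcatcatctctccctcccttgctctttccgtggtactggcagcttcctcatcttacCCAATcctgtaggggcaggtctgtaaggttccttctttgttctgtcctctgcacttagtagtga
Gpx3: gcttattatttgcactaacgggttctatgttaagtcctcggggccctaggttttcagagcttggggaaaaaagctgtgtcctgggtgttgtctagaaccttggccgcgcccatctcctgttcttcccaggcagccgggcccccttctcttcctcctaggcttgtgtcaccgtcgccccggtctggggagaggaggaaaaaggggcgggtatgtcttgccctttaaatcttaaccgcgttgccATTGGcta
Dpt: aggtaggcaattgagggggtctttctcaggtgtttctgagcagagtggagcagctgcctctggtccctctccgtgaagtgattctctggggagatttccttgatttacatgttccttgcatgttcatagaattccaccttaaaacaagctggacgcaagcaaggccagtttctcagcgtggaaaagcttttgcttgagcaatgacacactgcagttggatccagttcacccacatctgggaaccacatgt
Pi16 has 1 CCAAT box, whose first base is 64 bases before the start, and Gpx3 has 1 at 8 bases before it, on the opposite strand. Dpt has 0. Over all 32851 promoters of this length 33.8% hold that motif. The other motifs searched, on both strands, were the AP-1 site TGANTCA (held by 6.75% of promoters), the TEAD site GGAATG (12.6%) and the TATA box TATAAA (12.4%). Pi16, Gpx3, Dpt and Cd34 hold 0 of these 3. Dpp4 holds 1 TEAD site, 118 bases before the start, and the letters of 1 TATA box, 227 bases before it. Of the 8 members 7 were matched to the RefSeq promoters, all but Clec3b. Motifs are not given for Cpxm1 and Pdgfra, since the bases after their RefSeq start were not found in a GENCODE transcript of the gene.

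Pi16 encodes peptidase inhibitor 16, a secreted or membrane-anchored protein of the CAP superfamily. Its level was 6.63, 4.59, 13.0, 9.76 and 12.3 FPKM in the 5 BG136 plus anti-PD-1 tumours, 16.0, 11.6, 5.26, 5.65 and 5.60 FPKM with anti-PD-1, and 1.23, 2.76, 2.04, 3.30 and 0.735 FPKM with vehicle. Every treated tumour lay above every vehicle tumour, while the treated groups overlapped each other. The log2 change, computed on FPKM + 1, was 1.76 ± 0.34 (SE) for BG136 plus anti-PD-1 against vehicle and 1.65 ± 0.34 for anti-PD-1 against vehicle. Between BG136 plus anti-PD-1 and anti-PD-1 it was 0.11 ± 0.34, which is within the error. The treated groups were uneven: with anti-PD-1, replicates 1 and 2 were at 11.6 FPKM or more and the other 3 at 5.65 or less.

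Clec3b encodes tetranectin, a C-type lectin that binds plasminogen. It stood at 10.3, 5.94, 19.7, 19.5 and 17.5 FPKM in the BG136 plus anti-PD-1 tumours, at 15.8, 16.2, 4.14, 8.37 and 6.87 FPKM with anti-PD-1, and at 1.55, 1.96, 1.598, 7.85 and 1.37 FPKM with vehicle. Vehicle replicate 4 lay inside the range of both treated groups, and the other 4 vehicle tumours lay below every treated one. The log2 changes were 2.11 ± 0.42 for BG136 plus anti-PD-1 and 1.61 ± 0.42 for anti-PD-1, each against vehicle. Without vehicle replicate 4 these were 2.46 and 1.96.

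Gpx3 is the secreted glutathione peroxidase, a selenoprotein that reduces peroxides outside cells. Its level was 50.2, 71.6, 68.4, 84.9 and 188.8 FPKM in the BG136 plus anti-PD-1 tumours, 81.6, 90.3, 35.6, 46.2 and 33.9 FPKM with anti-PD-1, and 14.6, 23.7, 17.7, 29.4 and 11.03 FPKM with vehicle. All 10 treated tumours were above all 5 vehicle tumours. The log2 changes against vehicle were 2.13 ± 0.36 for BG136 plus anti-PD-1 and 1.49 ± 0.36 for anti-PD-1. BG136 plus anti-PD-1 replicate 5 stood alone at the top, and without it the first of these was 1.84.

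Cpxm1 encodes a secreted protein of the carboxypeptidase family. It was at 19.9, 18.0, 31.0, 41.7 and 81.5 FPKM in the BG136 plus anti-PD-1 tumours, at 32.5, 31.1, 8.33, 19.5 and 9.15 FPKM with anti-PD-1, and at 3.86, 5.46, 8.44, 9.60 and 6.36 FPKM with vehicle. The BG136 plus anti-PD-1 tumours were all above the vehicle tumours, while anti-PD-1 replicates 3 and 5 fell within the vehicle range. The log2 changes against vehicle were 2.18 ± 0.43 for BG136 plus anti-PD-1 and 1.30 ± 0.43 for anti-PD-1. Of the 4 genes that were higher, it differed most between the treated groups, by 0.88 ± 0.43 for BG136 plus anti-PD-1 set against anti-PD-1 alone.

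Dpt encodes dermatopontin, a small matrix protein that binds decorin and collagen. It was abundant in every library, with 44.6, 32.8, 51.7, 50.7 and 57.9 FPKM in the BG136 plus anti-PD-1 tumours, 51.0, 57.7, 69.3, 65.8 and 32.1 FPKM with anti-PD-1, and 111.4, 69.7, 108.5, 97.3 and 114.5 FPKM with vehicle. Here the treated tumours all lay below the vehicle tumours, although anti-PD-1 replicate 3 and vehicle replicate 2 almost met. The log2 changes against vehicle were -1.06 ± 0.20 for BG136 plus anti-PD-1 and -0.88 ± 0.20 for anti-PD-1.

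Pdgfra is the alpha receptor for platelet-derived growth factors and a general marker of fibroblasts. Its level was 9.57, 11.4, 8.78, 10.99 and 9.24 FPKM in the BG136 plus anti-PD-1 tumours, 12.5, 13.8, 14.8, 14.5 and 8.56 FPKM with anti-PD-1, and 26.1, 22.0, 27.2, 22.0 and 24.2 FPKM with vehicle. It was the most even of the 8 within groups, with a coefficient of variation of 11.5% with BG136 plus anti-PD-1, 19.9% with anti-PD-1 and 9.74% with vehicle, except that Cd34 varied less with anti-PD-1 (10.6%). With vehicle, Cd34 varied by 13.8% and Dpt by 18.2%, and the other members by 34.1% or more. Whether tumour cells held RNA of Pdgfra, Cd34 or Dpt was not tested. The log2 changes against vehicle were -1.20 ± 0.12 for BG136 plus anti-PD-1 and -0.89 ± 0.12 for anti-PD-1, with no overlap of either group with vehicle.

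Cd34 encodes a sialomucin of the cell surface. It was the most abundant of the 8, ranking 136th of all genes by mean level. The libraries held 426.9, 428.2, 327.4, 437.0 and 279.9 FPKM with BG136 plus anti-PD-1, 445.5, 485.1, 478.4, 368.6 and 467.8 FPKM with anti-PD-1, and 449.4, 571.1, 437.7, 432.6 and 409.8 FPKM with vehicle. The 3 groups overlapped. The log2 change against vehicle was -0.29 ± 0.13 for BG136 plus anti-PD-1, and -0.09 without its replicates 3 and 5. For anti-PD-1 it was -0.03 ± 0.13.

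Dpp4 encodes CD26, a membrane protease that trims peptides such as chemokines. It reached 1 FPKM in 2 of 15 libraries and so was the 1 gene of the 8 that missed the filter for testing (at least 1 FPKM in at least 5 libraries). It was listed at 0.648, 0.423, 1.22, 0.844 and 1.99 FPKM with BG136 plus anti-PD-1, at 0.846, 0.630, 0.380, 0.436 and 0.640 FPKM with anti-PD-1, and at 0.202, 0.471, 0.504, 0.640 and 0.406 FPKM with vehicle. The groups overlapped, and the levels above 1 were those of BG136 plus anti-PD-1 replicates 3 and 5. Of the 7 genes that were tested, Pi16 reached 1 FPKM in 14 libraries and the other 6 in all 15.

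**Figure D1:**
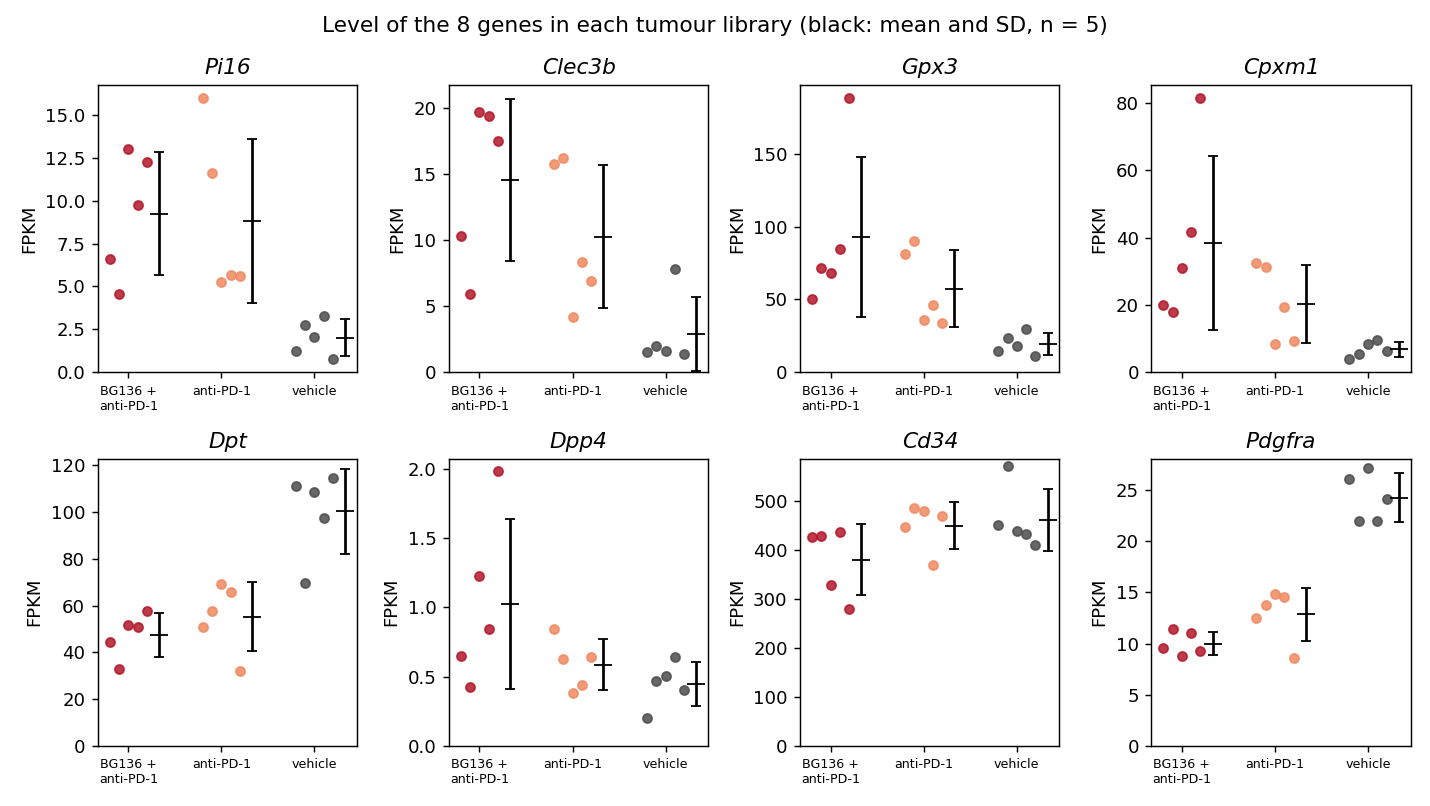
FPKM of each of the 8 genes (vertical axes, from 0) in the 5 libraries of each group (points), with mean and SD in black. Pi16, Gpx3 and Cpxm1 have all BG136 plus anti-PD-1 libraries above all vehicle libraries, Dpt and Pdgfra have all treated libraries below them, and the groups overlap for Cd34 and Dpp4.

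By the fit over 11311 genes, 4 of the 7 tested genes passed as higher and 2 as lower in BG136 plus anti-PD-1 against vehicle, where 16.6% and 23.9% of all tested genes did so. In anti-PD-1 against vehicle 3 passed as higher and 2 as lower, beside 2.21% and 3.34% of all tested genes. Nothing is read from these shares, since the same contrasts chose members. Groups without overlap were counted the same way. They were 3 higher and 2 lower of 7 for BG136 plus anti-PD-1 against vehicle (9.38% and 14.7% of all tested genes) and 2 higher and 2 lower for anti-PD-1 against vehicle (7.09% and 6.63%). In BG136 plus anti-PD-1 set against anti-PD-1 alone, limma called 0 of 7, with 1 at an unadjusted p under 0.05, beside 0.0619% of all tested genes, and 0 of 7 were without overlap, beside 0.663% of all tested genes higher and 3.84% lower. These comparisons share groups, so their values are not independent.

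The split can be stated within each library, which removes any scaling between libraries. The ratio of Pi16 to Pdgfra had a median of 0.888 (range 0.401 to 1.49) in BG136 plus anti-PD-1 tumours, 0.655 (0.355 to 1.28) with anti-PD-1 and 0.0752 (0.0304 to 0.150) with vehicle. The ranges of both treated groups lay above that of vehicle. That was fixed by the levels given above: every treated tumour lay above every vehicle tumour for Pi16 and below every one for Pdgfra. The ratio of Dpt to Pdgfra differed far less, with medians of 4.66 (2.87 to 6.26), 4.18 (3.75 to 4.67) and 4.26 (3.17 to 4.74) in the same order of groups. The ratio of Cd34 to Pdgfra had medians of 37.5 (30.3 to 44.6), 35.1 (25.4 to 54.7) and 17.2 (16.1 to 26.0) in that order. For that ratio BG136 plus anti-PD-1 lay above vehicle, and anti-PD-1 overlapped vehicle.

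A list of 23 further genes of universal and adventitial fibroblasts, none of them among the 8, was examined gene by gene, and 17 of them were tested. The list was chosen with earlier results of these data known, so its calls are no independent result. In BG136 plus anti-PD-1 against vehicle 8 rose and 1 fell (limma, Benjamini-Hochberg adjusted over all genes), which is 52.9% of the list beside 40.5% of all tested genes, and the list's median log2 change was 0.38 beside -0.05. The genes that rose were Ly6a, Ly6c1, Cd248, Mfap5, Tnxb, Scara5, Col14a1 and Gsn. Which cells held their RNA was not tested, and most markers of leukocytes and blood endothelium, given below, rose in the same comparison. Ly6a, the surface antigen Sca-1, averaged 614.1 ± 170.9 FPKM with BG136 plus anti-PD-1 and 358.0 ± 52.1 FPKM with vehicle (SD, n = 5 each), a log2 change of 0.74 ± 0.17 (limma adjusted p = 0.00430). Mfap5, a glycoprotein of elastic microfibrils, averaged 20.8 ± 9.38 and 8.20 ± 3.71 FPKM in the same order, a change of 1.23 ± 0.34 (limma adjusted p = 0.0113).

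Cd248, the stromal antigen endosialin, changed by 0.97 ± 0.29 (limma adjusted p = 0.0169), and Tnxb, the matrix protein tenascin-X, by 0.97 ± 0.30 (0.0182). Scara5, a ferritin receptor, changed by 0.82 ± 0.31 (0.0456). Sema3c, a secreted semaphorin, was the gene that fell, at 12.8 ± 3.80 FPKM with BG136 plus anti-PD-1 and 21.6 ± 4.66 FPKM with vehicle, a change of -0.73 ± 0.20 (limma adjusted p = 0.0101). Fbn1, the microfibril protein fibrillin-1, did not pass and changed by -0.20 ± 0.09 (limma adjusted p = 0.0739). Cd55, the complement regulator that marks these cells in mice, averaged 0.605 ± 0.256 FPKM with BG136 plus anti-PD-1 and 0.260 ± 0.109 FPKM with vehicle and was not tested. Ly6c1, a surface antigen of the same family as Ly6a, changed by 0.64 ± 0.21, Col14a1, a fibril-associated collagen, by 0.88 ± 0.25 and Gsn, the actin-severing protein gelsolin, by 0.50 ± 0.18.

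In anti-PD-1 against vehicle 1 of the 17 passed and it fell. This was Sema3c, at 12.7 ± 3.96 FPKM with anti-PD-1 and 21.6 ± 4.66 FPKM with vehicle, a log2 change of -0.75 ± 0.20 (limma adjusted p = 0.0416). The list's median change was 0.24 beside 0.01 for all tested genes, 8 of 17 had an unadjusted p under 0.05, and 5.88% of the list passed beside 5.55% of all tested genes. Ly6a, at 509.6 ± 61.5 FPKM with anti-PD-1, changed by 0.51 ± 0.17 against vehicle (limma adjusted p = 0.0952) and Mfap5 by 0.86 ± 0.34 (0.154). The Sema3c call ended on leaving out any of 9 single libraries. Those were BG136 plus anti-PD-1 replicate 1, anti-PD-1 replicates 1, 2, 4 and 5, and vehicle replicates 1, 2, 3 and 5, with 0 list genes called except 1, Ly6c1, without vehicle replicate 2. In BG136 plus anti-PD-1 set against anti-PD-1 alone, limma called 0 of 17, with 1 at an unadjusted p under 0.05, and the list's median change was 0.07. Without BG136 plus anti-PD-1 replicate 2, 1 gene (Ly6a) was called higher. The share of all tested genes called on leaving out a library is not given.

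**Figure D2:**
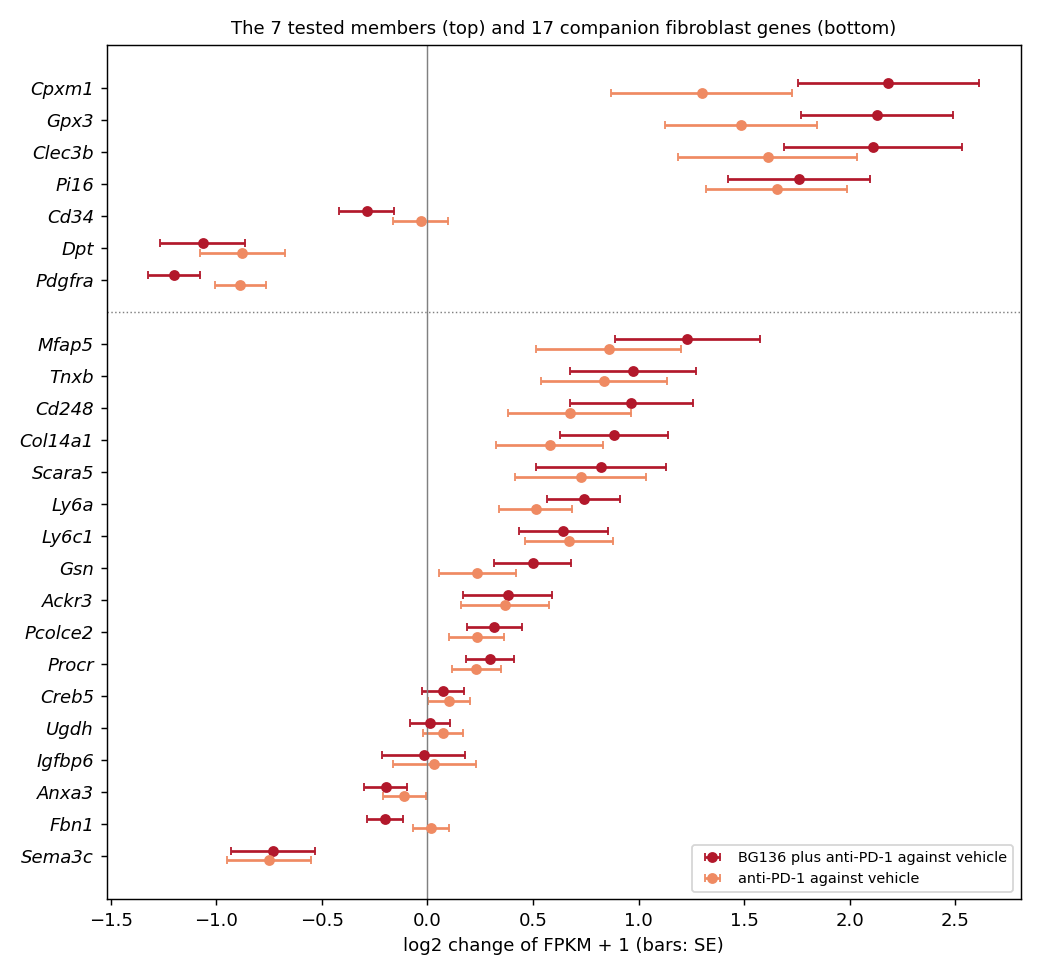
Log2 change of FPKM + 1 (horizontal axis, bars SE) for the 7 tested members (top) and the 17 tested companion genes (bottom), for BG136 plus anti-PD-1 against vehicle (upper point of each pair) and anti-PD-1 against vehicle (lower point). Members lie between -1.20 and 2.18 and companions between -0.75 and 1.23.

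General fibroblast genes also went both ways. Of 12 tested in BG136 plus anti-PD-1 against vehicle 6 rose and 3 fell (75.0% called, median log2 change 0.33). In that comparison 16.6% of all tested genes rose and 23.9% fell, shares that apply to each list in this paragraph. The collagen gene Col1a1 averaged 265.7 ± 162.5 FPKM with BG136 plus anti-PD-1 and 96.9 ± 8.79 FPKM with vehicle, a log2 change of 1.27 ± 0.32 (limma adjusted p = 0.00700). Col5a1, a collagen that nucleates fibrils, averaged 53.9 ± 9.17 and 106.5 ± 9.91 FPKM in the same order, a change of -0.98 ± 0.11 (limma adjusted p = 6.51e-05). Fstl1, a secreted follistatin-like glycoprotein, changed by -0.55 ± 0.08 (limma adjusted p = 2.22e-04). The third gene that fell, named after its values were seen, was Col3a1 at -0.82. In anti-PD-1 against vehicle 0 rose and 3 fell, beside 2.21% and 3.34% of all tested genes. Among 9 tested myofibroblast genes 6 rose and 1 fell with BG136 plus anti-PD-1 (median 1.32), and 0 of 9 passed with anti-PD-1 (2 at an unadjusted p under 0.05). Tagln, an actin-binding protein of contractile cells, changed by 1.84 ± 0.39 with BG136 plus anti-PD-1 (limma adjusted p = 0.00258) and Acta2, smooth muscle actin, by 1.47 ± 0.43 (0.0146). Of 7 tested inflammatory fibroblast genes 5 rose with BG136 plus anti-PD-1 (median 0.78), among them the chemokine Cxcl12 by 1.96 ± 0.39 (limma adjusted p = 0.00172) and the acute-phase protein Saa3 by 2.68 ± 0.58 (0.00270). With anti-PD-1 limma called 0 of these 7, with 3 at an unadjusted p under 0.05.

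Relatives of the 8 genes were read for BG136 plus anti-PD-1 against vehicle, where 16.6% of all tested genes rose and 23.9% fell. Among PDGF ligands, Pdgfb rose by 0.51 ± 0.14 (limma adjusted p = 0.00844) and Pdgfc fell by 0.23 on the log2 scale (limma adjusted p = 0.0326) with BG136 plus anti-PD-1. Pdgfa, the ligand with the highest level, was at 12.2 ± 1.44 FPKM with BG136 plus anti-PD-1 and 10.5 ± 1.26 FPKM with vehicle and did not pass (0.0686). Pdgfc was the 1 PDGF gene that passed with anti-PD-1 against vehicle, at -0.39 ± 0.08 (limma adjusted p = 0.0128). The cellular glutathione peroxidases went separate ways. Gpx1 rose by 0.38 ± 0.09 (limma adjusted p = 0.00352) and Gpx7 by 1.12 ± 0.27 (0.00475), while Gpx8 changed by -0.46 ± 0.10 (0.00228). Cpe, the carboxypeptidase relative of Cpxm1 with the highest level, changed by -0.15 ± 0.17 (limma adjusted p = 0.504), while 3 of the 5 tested rose: Cpxm2 by 1.31 ± 0.34 (limma adjusted p = 0.00805), Cpz by 1.14 ± 0.24 (0.00261) and Aebp1 by 0.58 ± 0.19 (0.0286). Of the CAP superfamily relatives of Pi16, Crispld2 changed by 0.92 ± 0.26 (limma adjusted p = 0.0124), Glipr1 by 0.59 ± 0.15 (0.00596) and Glipr2 by -0.25 ± 0.05 (0.00156). Of the prolyl peptidase relatives of Dpp4, Fap changed by 0.60 ± 0.18 (limma adjusted p = 0.0170), Prep by -0.29 ± 0.09 (0.0230) and Dpp9 by -0.11 ± 0.03 (0.0171). Podxl, a sialomucin relative of Cd34, changed by 0.48 ± 0.16 (limma adjusted p = 0.0295).

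Genes whose pattern over the 15 libraries was most like that of Pi16 were ranked by Pearson's r of log2(FPKM + 1), a description with no test in which the shared group differences count. Among the other members r was 0.939 for Clec3b, 0.916 for Gpx3, 0.871 for Cpxm1 and 0.708 for Dpp4, and -0.344 for Cd34, -0.661 for Dpt and -0.810 for Pdgfra. Outside the 8 genes only tested genes with a mean of at least 2 FPKM were ranked, without predicted genes and pseudogenes. Among those the highest were Lbp (0.968), Cxcl14 (0.954), Wisp2 (0.947), Timp3 (0.939), Cygb (0.938), Prelp (0.938), Nbl1 (0.935) and Serping1 (0.934). Lbp, the lipopolysaccharide-binding protein, averaged 7.39 ± 2.76 FPKM with BG136 plus anti-PD-1, 6.44 ± 2.66 FPKM with anti-PD-1 and 1.602 ± 0.843 FPKM with vehicle.

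Adipocyte genes varied widely between blocks. Adipoq, the adipocyte hormone adiponectin, was at 19.2, 1.75, 9.52, 23.1 and 22.9 FPKM with BG136 plus anti-PD-1, at 14.3, 24.5, 7.98, 8.74 and 3.31 FPKM with anti-PD-1, and at 0.216, 0.0417, 5.72, 17.3 and 2.83 FPKM with vehicle. The groups overlapped, and vehicle replicates 1 and 2 had the least. Summed over all 12 adipocyte markers, the level lay between 25.3 and 317.0 FPKM with BG136 plus anti-PD-1, between 50.6 and 301.2 FPKM with anti-PD-1 and between 7.42 and 235.0 FPKM with vehicle. Adipoq itself changed by 1.83 ± 0.78 with BG136 plus anti-PD-1 against vehicle (limma adjusted p = 0.0727) and by 1.59 ± 0.78 with anti-PD-1 (0.238). Plin1, the lipid droplet coat protein perilipin, averaged 3.83 ± 2.51 FPKM with BG136 plus anti-PD-1, 2.78 ± 1.72 FPKM with anti-PD-1 and 1.18 ± 1.61 FPKM with vehicle, and the fatty acid carrier Fabp4 averaged 50.4 ± 24.6, 36.7 ± 20.3 and 21.2 ± 17.5 FPKM in the same order. The median log2 change of the 10 tested markers was 1.23 with BG136 plus anti-PD-1 against vehicle and 0.94 with anti-PD-1 against vehicle, beside -0.05 and 0.01 over all tested genes. Of 10 tested markers 2 rose and 0 fell in BG136 plus anti-PD-1 against vehicle (Thrsp by 1.74 ± 0.58, limma adjusted p = 0.0279, and Lipe by 0.68 ± 0.26, limma adjusted p = 0.0491), and 6 had an unadjusted p under 0.05. Those 2 are 20.0% of the list, and 16.6% of all tested genes rose in that comparison. In anti-PD-1 against vehicle limma called 0 of 10, and 0 had an unadjusted p under 0.05. Of the preadipocyte and parenchymal fibroblast list 5 of 6 tested rose with BG136 plus anti-PD-1, among them Cebpa, a transcription factor of fat cell differentiation, by 1.16 ± 0.23 (limma adjusted p = 0.00147), Cxcl14, a chemokine, by 1.49 ± 0.35 (0.00472) and the basement membrane collagen Col15a1 by 1.12 ± 0.34 (0.0189). With anti-PD-1 limma called 0 of these 6, with 3 at an unadjusted p under 0.05.

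Single libraries show how Pi16 and Clec3b stood beside fat. The other members of the Pi16 group are not set beside it here. Vehicle replicate 4 held 17.3 FPKM of Adipoq, 3.30 of Pi16 and 7.85 of Clec3b. Anti-PD-1 replicate 1 held 14.3 FPKM of Adipoq, 16.0 of Pi16 and 15.8 of Clec3b. BG136 plus anti-PD-1 replicate 2 held 1.75 FPKM of Adipoq, 4.59 of Pi16 and 5.94 of Clec3b, which placed it above all vehicle tumours for Pi16 and below vehicle replicate 4 for Clec3b. These 3 libraries were picked after their values were seen.

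To set the adipocyte genes beside the others within treatment groups, a slope on the adipocyte score was fitted across all genes. The score is a library's mean log2(FPKM + 1) over the 10 tested adipocyte markers, and the slope is the log2 change of a gene per unit of score at a fixed group. It does not use the group differences that chose the members. Over all tested genes 0.433% had a slope at an adjusted p under 0.05, every one of them positive. By limma 0 of the 7 tested members passed, with 4 at an unadjusted p under 0.05, which 7.46% of all tested genes had (844 of 11311). Clec3b had a slope of 0.54 ± 0.14 (limma adjusted p = 0.172), Cpxm1 of 0.54 ± 0.14 (0.215), Pi16 of 0.31 ± 0.13 (0.656) and Gpx3 of 0.30 ± 0.15 (0.684). Dpt had a slope of 0.19 ± 0.08 (limma adjusted p = 0.630), Pdgfra of 0.02 ± 0.06 (0.932) and Cd34 of -0.07 ± 0.06 (0.775). Without BG136 plus anti-PD-1 replicate 1 the slope of Cpxm1 passed, at 0.59 (limma adjusted p = 0.0386). The share of all tested genes that passed in that fit is not given.

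Of the 17 companion genes limma called 0 for the slope, with 3 at an unadjusted p under 0.05 (7.46% of all tested genes) and a median slope of 0.03. In the preadipocyte list 1 of 6 passed, Lpl (chosen after its values were seen), the lipoprotein lipase, at 0.79 ± 0.08 (limma adjusted p = 9.91e-05). The 9 of 10 adipocyte markers that passed make up the score and are no independent result.

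**Figure D3:**
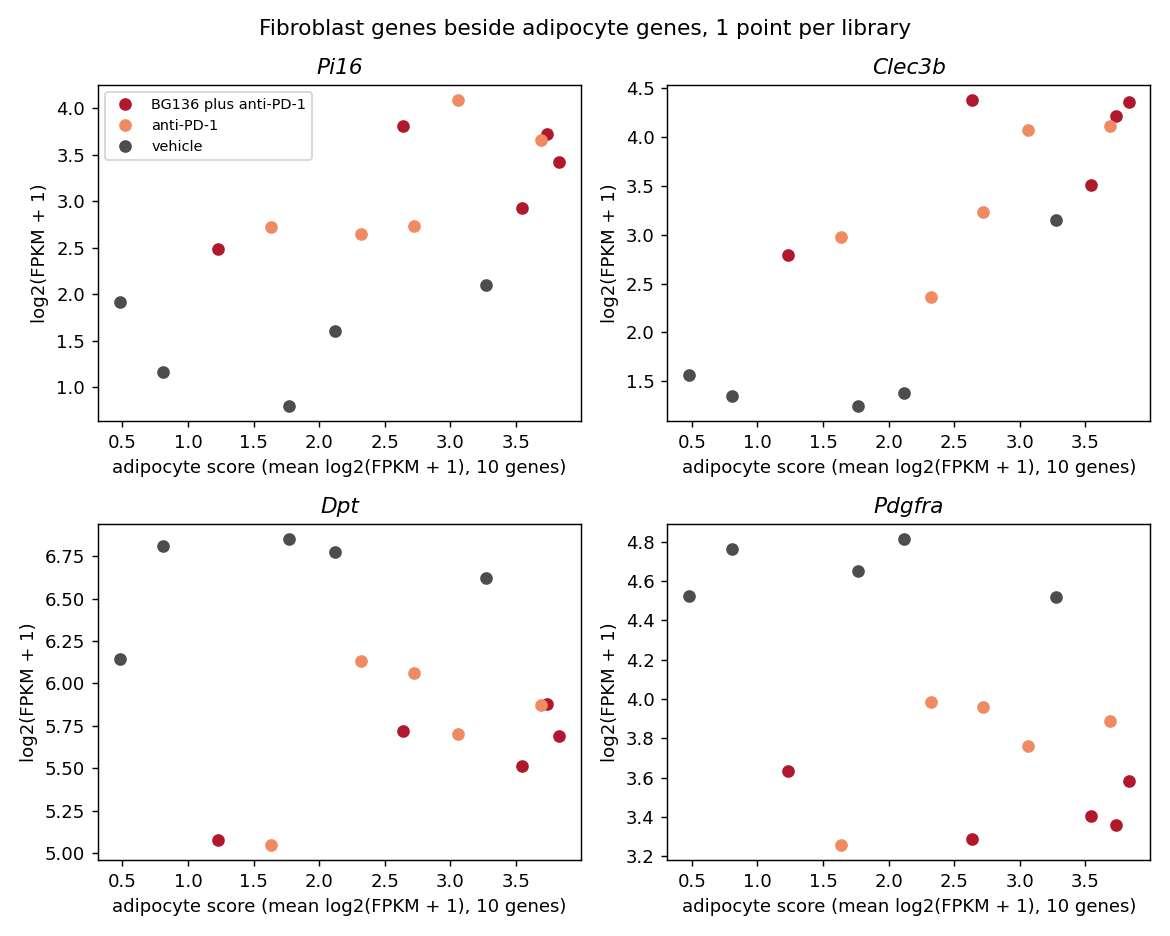
Log2(FPKM + 1) of Pi16, Clec3b, Dpt and Pdgfra (vertical axes) against the adipocyte score (horizontal axes), 1 point per library, coloured by group. At scores between 1.23 and 3.83, the treated libraries lie above the vehicle libraries for Pi16 and below them for Dpt and Pdgfra, while vehicle replicate 4, at a score of 3.28, is among the treated libraries for Clec3b.

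**Figure D4:**
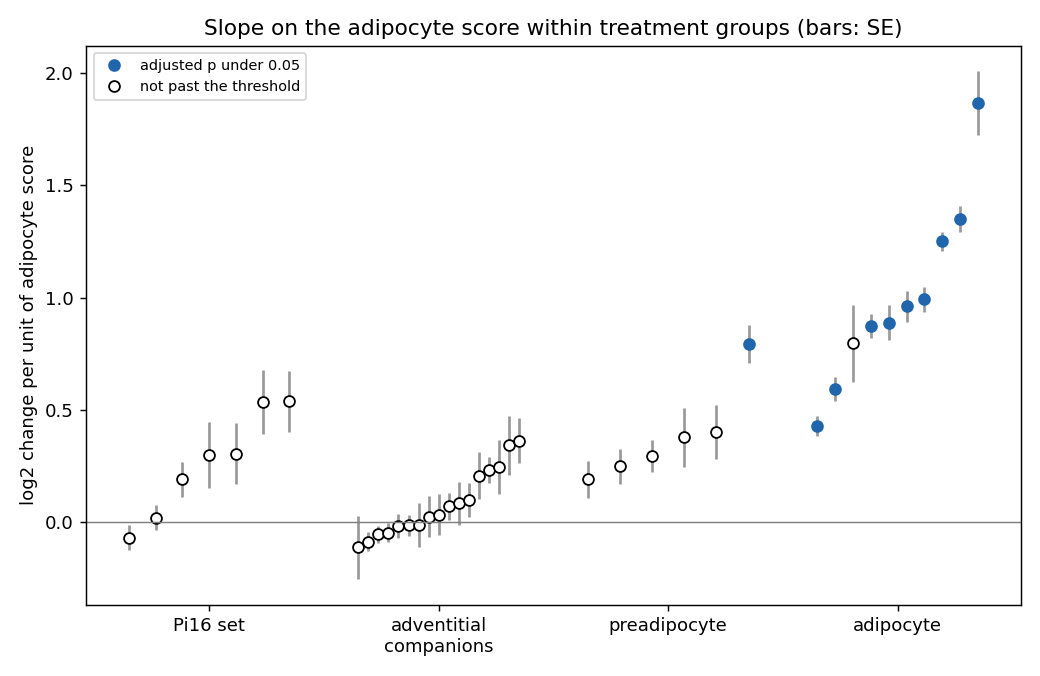
Slope on the adipocyte score within groups (vertical axis, log2 per unit of score, bars SE) for tested genes of the Pi16 group, the companion fibroblast list, the preadipocyte list and the adipocyte list, filled where the adjusted p is under 0.05. The slopes of the Pi16 group run from -0.07 to 0.54 and 0 are filled, while 9 of 10 adipocyte genes, which form the score, are filled.

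With the score held fixed, the log2 changes of the members against vehicle kept their signs, apart from Cd34 with anti-PD-1. For BG136 plus anti-PD-1 they were 1.36 ± 0.34 for Pi16, 1.41 ± 0.35 for Clec3b, 1.74 ± 0.38 for Gpx3 and 1.48 ± 0.36 for Cpxm1. For anti-PD-1 they were 1.35 ± 0.32 for Pi16, 1.07 ± 0.33 for Clec3b, 1.19 ± 0.36 for Gpx3 and 0.77 ± 0.34 for Cpxm1. The changes of Dpt were -1.31 ± 0.20 with BG136 plus anti-PD-1 and -1.07 ± 0.19 with anti-PD-1, and those of Pdgfra -1.23 ± 0.15 and -0.91 ± 0.14 in the same order. With the score held fixed, 2 of the 9 companion calls for BG136 plus anti-PD-1 against vehicle passed (Ly6a and Sema3c) and 0 of 1 for anti-PD-1, while the share of all tested genes called was 21.6% and 1.96% in these comparisons, beside 40.5% and 5.55% without the score. Calls that no longer passed differed in how far the log2 change moved. For BG136 plus anti-PD-1, Scara5 was at 0.97 ± 0.36 with the score and 0.82 without it, and Ly6c1 at 0.53 ± 0.24 and 0.64. Mfap5 was at 0.78 ± 0.34 with the score and 1.23 without it, Tnxb at 0.50 ± 0.26 and 0.97, and Gsn at 0.19 ± 0.15 and 0.50. Sema3c with anti-PD-1 was at -0.77 ± 0.22 with the score and -0.75 without it. An alternative added after seeing the data, without the score, left out BG136 plus anti-PD-1 replicates 3 and 5. For BG136 plus anti-PD-1 against vehicle it called 4 list genes (Ly6a, Ly6c1, Scara5 and Ugdh). The share of all tested genes called in it is not given. The members then changed by 1.43 for Pi16, 1.81 for Clec3b, 1.83 for Gpx3, 1.78 for Cpxm1, -1.21 for Dpt and -1.11 for Pdgfra.

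Markers of other cells that can hold these genes moved as well. Beside them, 16.6% of all tested genes rose with BG136 plus anti-PD-1 against vehicle and 2.21% with anti-PD-1 against vehicle. The summed level of 10 blood endothelial markers lay between 58.2 and 142.4 FPKM with BG136 plus anti-PD-1, between 50.6 and 74.2 FPKM with anti-PD-1 and between 38.4 and 57.1 FPKM with vehicle, and 9 of 10 rose with BG136 plus anti-PD-1 and 0 with anti-PD-1 (2 at an unadjusted p under 0.05 by limma). Pecam1, the endothelial adhesion molecule CD31, averaged 21.0 ± 8.96 FPKM with BG136 plus anti-PD-1, 12.7 ± 2.65 FPKM with anti-PD-1 and 9.27 ± 1.30 FPKM with vehicle, far below Cd34 per length. All 5 tested leukocyte markers rose with BG136 plus anti-PD-1 and 1 (Cd8a) with anti-PD-1, where Ptprc, the pan-leukocyte phosphatase CD45, averaged 48.1 ± 20.7 FPKM with BG136 plus anti-PD-1, 30.2 ± 1.99 FPKM with anti-PD-1 and 19.5 ± 1.68 FPKM with vehicle. The 6 leukocyte markers summed to between 114.8 and 314.3 FPKM with BG136 plus anti-PD-1, between 107.7 and 131.2 FPKM with anti-PD-1 and between 74.4 and 96.5 FPKM with vehicle. The part of leukocytes, endothelium or tumour cells in the levels of Cd34 and Dpp4 was not tested. Of 7 tested mural cell markers 4 rose with BG136 plus anti-PD-1, among them Rgs5, a pericyte regulator of G-protein signalling, by 0.93 ± 0.18 (limma adjusted p = 0.00144), and 0 passed with anti-PD-1 (3 at an unadjusted p under 0.05 by limma). The Schwann cell gene Mbp rose with BG136 plus anti-PD-1 by 0.73 ± 0.17 (limma adjusted p = 0.00405), 1 of 2 tested on its list. By limma 0 of 3 lymphatic, 0 of 1 mesothelial and 0 of 1 skin keratinocyte genes tested passed in that comparison, and 0 of these had an unadjusted p under 0.05. The mesothelial gene Upk3b was listed at 0 in all anti-PD-1 and vehicle tumours. Summed skeletal muscle markers overlapped between groups, at 0.960 to 227.5 FPKM with BG136 plus anti-PD-1, 40.7 to 206.2 FPKM with anti-PD-1 and 0.917 to 232.3 FPKM with vehicle. With a muscle score in the fit, Cpxm1 was the member whose log2 change against vehicle moved most, to 1.46 with anti-PD-1, beside 1.30 without the score.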

How the data were processed

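Tumour RNA from 15 libraries was profiled by mRNA sequencing with a stranded TruSeq kit, per the labels' protocols. The submitters' processing notes name Trimmomatic, HISAT2, Cufflinks, HTSeq, DESeq and build GRCm39, with no order and no versions. The deposited table is headed only as expression, and its values were read as FPKM made by the authors because Cufflinks is named and the values are not whole. Of its 21878 rows, 27 with gene names turned into dates were left out (at most 0.168% of a library's sum), leaving 21851.

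From these values log2(FPKM + 1) was taken for the 11311 genes that reached 1 FPKM in 5 or more libraries. A model of 3 group means was fitted to all of them with limma 3.58.1 (R 4.3.3, empirical Bayes with a mean trend). P-values were adjusted by Benjamini-Hochberg over all genes within each of 3 comparisons, at a threshold of 0.05. Fold changes of low genes are understated by the pseudocount of 1. The same model with the adipocyte score added gave the slopes. The code was tested on simulated data.

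The 8 members and the 21 gene lists were chosen with earlier results of these data known. Named genes were the 8 members, the 2 genes of each list with the smallest p for BG136 plus anti-PD-1 against vehicle, a fixed set of markers, relatives that passed or had the highest level, and the 8 genes most like Pi16. Alternatives changed the pseudocount, filter, scaling, block, weights, samples or covariate, or left out libraries.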

Additional observations from a re-analysis of the deposited data

Results flagged for a closer look

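Of 27 checks of 5 libraries each, 3 showed a highest or lowest library whose gap to the next, as a share of the group's range, exceeded 0.71. Chance flags about 1 in 20 groups. Clec3b stood at 7.85 FPKM in vehicle replicate 4, with a gap of 0.910 of the range; that library also had the highest adipocyte score of the vehicle tumours, 3.28. Gpx3 stood at 188.8 FPKM in BG136 plus anti-PD-1 replicate 5, with a gap of 0.750 of the range. Cd34 stood at 571.1 FPKM in vehicle replicate 2, with a gap of 0.755 of the range, and that library had the lowest adipocyte score of all, 0.480.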

How the results depend on the processing

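Of the single-gene values under the alternatives, 733 kept their direction or moved by less than the spread between replicates, 1 reversed and 1 newly passed. Changes of sign within that spread are counted among the 733. For example, Pi16 in BG136 plus anti-PD-1 set against anti-PD-1 alone was at 0.11, and at -0.22 without BG136 plus anti-PD-1 replicates 3 and 5. The slope of Pdgfra on the adipocyte score, 0.02, ran from -0.0396 without anti-PD-1 replicate 5 to 0.0791 without BG136 plus anti-PD-1 replicate 2, and that of Cpxm1 passed without BG136 plus anti-PD-1 replicate 1. The companion list's 9 calls for BG136 plus anti-PD-1 against vehicle became 2 with the adipocyte score as covariate (a fit that called 21.6% of all tested genes, beside 40.5%, and in which Scara5 lost its call at a larger change) and 4 without replicates 3 and 5 of BG136 plus anti-PD-1, and ran from 6 to 11 on leaving out 1 library. Its 1 call for anti-PD-1 against vehicle became 0 with no filter, with the adipocyte score, with the muscle score and with a replicate block. It became 5 with array weights, 4 with only the 2 groups compared and 3 without those replicates 3 and 5, and ran from 0 to 2 on leaving out 1 library. The 0 calls for BG136 plus anti-PD-1 set against anti-PD-1 alone ran from 0 to 1, and the 0 calls for the slope from 0 to 1 (Gsn, without BG136 plus anti-PD-1 replicate 1), on leaving out 1 library. Some of those settings use fewer samples or more genes, and others, such as the scores, block and weights, use the same libraries and genes. For the alternatives other than the adipocyte score, the share of all tested genes called is not given beside these counts. The shifts are therefore not read as changes of the list's genes, and their cause was not tested.

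Replicate numbers do not pair the libraries: correlations of same-numbered libraries ran from -0.388 to 0.293, 2 of 15 pairs were over 0.1, and 1 of 15 libraries correlated best with its own number. With the replicate block the companion list had 10 calls for BG136 plus anti-PD-1 against vehicle, 0 for anti-PD-1 against vehicle, 0 for BG136 plus anti-PD-1 set against anti-PD-1 alone and 0 for the slope. Read depth is unknown, so no counting error is given. How many reads lie behind levels under 1 FPKM, such as most of those of Dpp4, is not known.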
